A study of Mus musculus with 8 samples.

Results

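Diacylglycerol kinases are lipid kinases that phosphorylate diacylglycerol, a membrane second messenger, to phosphatidic acid. The genes described here are the 9 listed kinases Dgka, Dgkb, Dgkd, Dgke, Dgkg, Dgkh, Dgki, Dgkq and Dgkz, found among the 21859 Ensembl gene IDs of the count table by their GENCODE M21 symbols. All 9 had a row in the table, and 7 of them passed the filter on low counts. Dgkg brought the family into view because its level fell in an earlier look at these same samples, so its difference between media is given as a description, without a test. The other 8 entered as members of its family.

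The samples were 8 cultures of the leukaemia line PER-M60, from mouse, sequenced from total RNA. Of these, 4 were grown in control media and 4 in osteoclast-conditioned media, medium that had been on osteoclasts, the bone-resorbing cells. The comparison asks how the leukaemia cells' transcripts differ between the media. Both groups are the same single line, so the spread within a group is the spread between cultures of that line. Strain, genotype, age of the source animal, dose of conditioned medium and time in culture are not given in the sources used here.

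Diacylglycerol is made when phospholipase C splits a membrane phosphoinositide below an activated receptor, and it recruits protein kinase C and RasGRP proteins to the membrane. Diacylglycerol kinases remove that signal and at the same time supply phosphatidic acid, which feeds the resynthesis of phosphoinositides. In lymphocytes Dgka and Dgkz are known as brakes on signalling from the antigen receptor. The family is divided into types by domain layout: type I enzymes (Dgka, Dgkb, Dgkg) bind calcium through EF hands, type II (Dgkd, Dgkh) carry a pleckstrin homology domain, type III (Dgke) has no added regulatory domain, type IV (Dgkz, Dgki) has ankyrin repeats and type V is Dgkq.

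Total counts ran from 15391754 to 21637966 per culture, and the detection floor, set at 3 counts, lay at 0.139 to 0.195 CPM (counts scaled to a fixed library size). Of 13 B-lineage markers 11 were tested, with summed normalised CPM of 4840 to 4905 in control and 5045 to 5092 in conditioned medium. Rag1 and Rag2 were listed at 0. Osteoclast markers summed to 35.8 to 37.2 in control and 34.4 to 37.9 in conditioned medium, with Dcstamp and Ocstamp at 0 and 8 of 10 below the filter. Of the 2 tested ones, Itgb3 fell from 12.9 ± 1.41 to 10.7 ± 0.376 CPM (edgeR adjusted p = 0.0185), and Acp5 was at 22.9 ± 1.51 and 24.4 ± 1.42 CPM (edgeR adjusted p = 0.332). Myeloid markers summed to 7.62 to 8.29 and 8.80 to 10.5, with Itgam and Elane at 0. The T-lineage markers summed to 252 to 254 and 269.5 to 275, nearly all from Cd2, Lck and Zap70, with Cd3g and Cd8a at 0. The B-lineage, myeloid and T-lineage sums did not overlap between media, and their part in the results below was not tested. In bulk RNA, fewer cells of a kind and less RNA per cell cannot be told apart.

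Among the 7 tested kinases, Dgkg was 1.67-fold lower in conditioned medium, Dgka and Dgkz were slightly lower, Dgkh was 1.24-fold higher, and Dgkd, Dgke and Dgkq did not pass the test. Leaving out Dgkg, which was chosen for its fall, 3 of the other 6 had a Benjamini-Hochberg adjusted p under 0.05 in edgeR's quasi-likelihood fit, 2 lower and 1 higher. Without conditioned replicate 3 this count was 1 of 6 (Dgka), and without control replicate 1, 3 or 4 or conditioned replicate 1 or 2 it was 2 of 6 (Dgka and Dgkh). Over all 10729 genes tested, 30.5% had such a p, 14.8% lower and 15.7% higher. The family was chosen with results of these data known, so nothing is read from the count. Groups did not overlap for 2 of those 6 (Dgka and Dgkh), beside 28.2% of all tested genes. The median log2 fold change of all 7, Dgkg included, was -0.09, beside -0.0087 over all tested genes. Among the 4 conditioned cultures, replicate 4 had the highest level of 5 of the 7 kinases (Dgka, Dgke, Dgkg, Dgkq and Dgkz), all of which had a negative fold change. That pattern was picked out after the values were seen, with no count over all genes beside it. Control replicate 1 was highest of its medium for 3 of the 7. Control replicate 2 and conditioned replicate 1 were each lowest of their medium for 3.

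**Figure D1:**
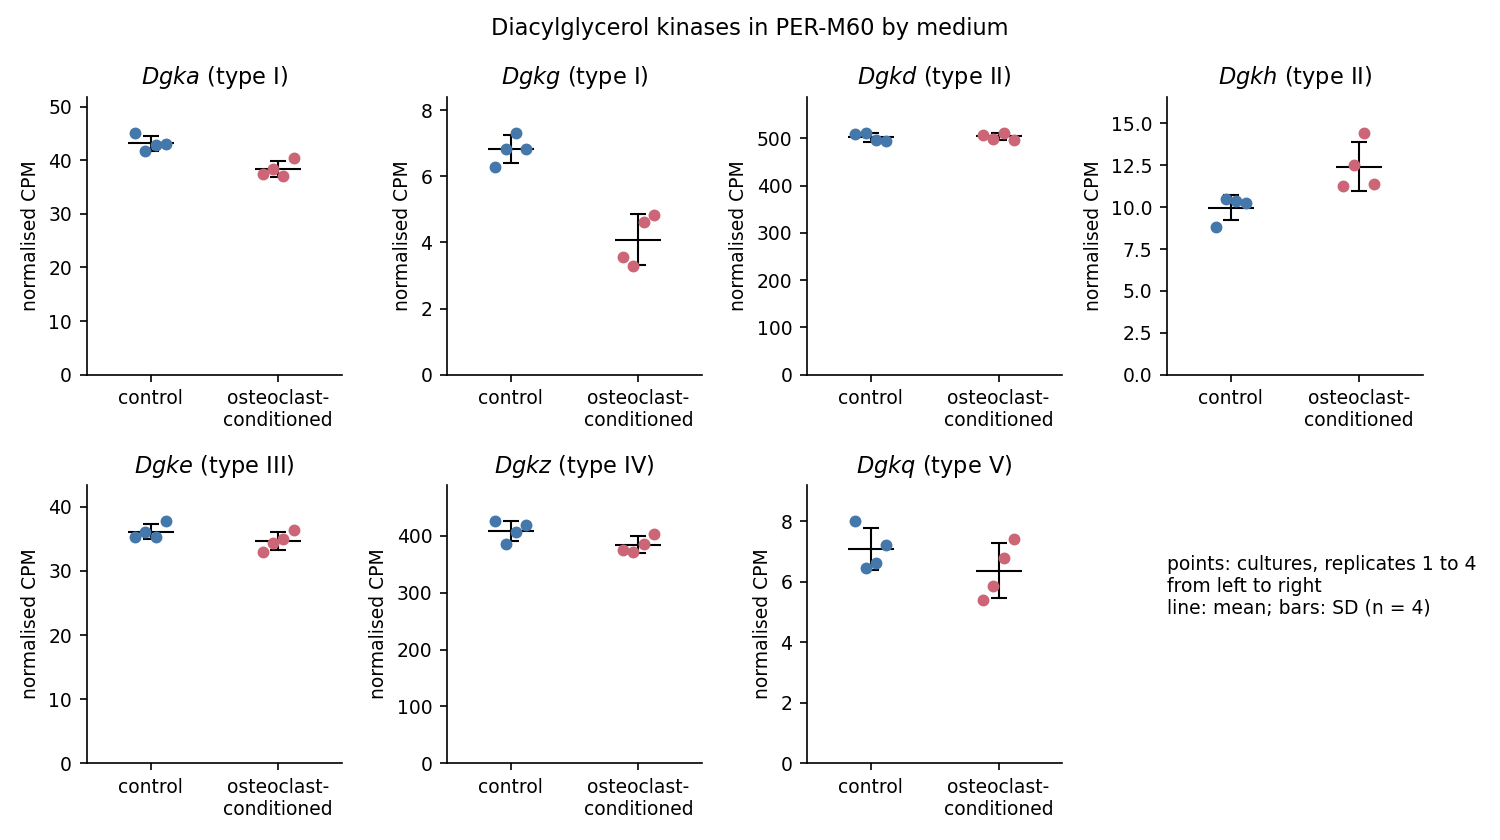
Normalised CPM (vertical axis, from 0) of the 7 tested diacylglycerol kinases in each culture, by medium; points are cultures in replicate order, the line is the mean and bars are SD (n = 4). For Dgkg all 4 conditioned cultures, at 3.29 to 4.84, lie below the control cultures, at 6.28 to 7.32, while for Dgkd the means are 503 and 504.

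Dgkg (ENSMUSG00000022861; chromosome 16, 22468461 to 22657221, minus strand, GRCm38) encodes the gamma isoform, a calcium-responsive type I enzyme best known from brain. It had 106, 148, 113 and 121 counts in control replicates 1 to 4 and 70, 55, 86 and 83 in conditioned replicates 1 to 4. Normalised to library size, these were 6.28, 6.83, 7.32 and 6.83 CPM against 3.56, 3.29, 4.62 and 4.84 CPM. Every conditioned culture was below every control culture, and conditioned replicates 1 and 2 were lower than replicates 3 and 4. The means were 6.81 ± 0.424 and 4.08 ± 0.766 CPM (SD, n = 4 each), a difference of -0.74 on the log2 scale (SE 0.12). The coefficient of variation in control medium was 6.23%, below the 9.05% that counting alone gives at this depth, and in conditioned medium 18.8% against 11.7%. No exon of Dgkg overlaps another gene of the count table, by GENCODE M21 positions. Overlap with annotated genes outside the count table was not examined.

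The start of the gene is shown because it is the member with the largest difference, beside that of Dgkh, the member that rose. RefSeq (GRCm38.p6) gives Dgkg 1 start site, and the 250 bases before it are chr16:22657232-22657481 on the minus strand. For Dgkh the start nearest the 5′ end of the GENCODE gene was taken out of 3, and the 203 bases outside the gene are chr14:78732777-78732979 on the minus strand. The 47 bases between them and that start lie inside the gene and are not printed. A GC box 49 to 44 bases before the start straddles that edge and is not marked. Capitals mark the E-box CACGTG and the GC box GGGCGG (on either strand).
Dgkg: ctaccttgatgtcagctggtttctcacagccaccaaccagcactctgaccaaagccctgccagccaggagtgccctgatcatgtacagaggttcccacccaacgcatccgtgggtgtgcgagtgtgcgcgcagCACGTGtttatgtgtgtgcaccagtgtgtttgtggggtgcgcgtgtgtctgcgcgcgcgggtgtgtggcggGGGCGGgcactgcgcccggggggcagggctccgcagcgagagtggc
Dgkh: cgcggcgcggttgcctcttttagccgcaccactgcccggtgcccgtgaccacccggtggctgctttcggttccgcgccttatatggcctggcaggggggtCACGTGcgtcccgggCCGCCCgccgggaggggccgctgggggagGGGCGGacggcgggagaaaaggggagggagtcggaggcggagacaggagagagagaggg

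Both strands of the 250 bases before 1 start per gene were searched, the start nearest the 5′ end of the GENCODE gene where RefSeq lists more (4 for Dgka, 3 for Dgkh, 2 for Dgkz), and the other starts were not examined. Both windows hold a CACGTG, which reads the same on either strand, is bound by Myc, USF and related factors, and starts 117 bases before the start of Dgkg and 150 before that of Dgkh. Among the 7 windows searched for the tested kinases, these 2 held CACGTG, and 6.02% of 32851 RefSeq windows of that length hold it. The shorter ACGTG, the core of the hypoxia response element, lies inside CACGTG in both and also occurs in the Dgkz window (16.6% of all windows). GGGCGG was present for 6 of the 7 (32.7% of all windows), with no match in the window searched for Dgka. Neither TGACGTCA (the cAMP response element), TGANTCA (AP-1), TGATGNAAN (the ATF4 composite site) nor TATAAA was found in any of these 7 windows on either strand, and these occur in 1.55%, 6.75%, 3.44% and 12.4% of all windows. CCAAT was found in the Dgke window, of the tested members (33.8% of all windows). Such matches are letters in a window and do not show binding. For Dgke, Dgkq and Dgkz the RefSeq start used, and so the window, lay inside the GENCODE gene. Their windows ended at 89060998, 108661080 and 91963813, and the minus-strand genes at 89066850, 108669672 and 91975864. The sequence before the 5′ end of those GENCODE genes was not searched.

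Dgka (ENSMUSG00000025357; chromosome 10, 128720134 to 128744855, minus strand) is the type I isoform that lymphocytes use to limit diacylglycerol below the antigen receptor. It measured 45.1, 41.7, 42.8 and 43.1 CPM in control medium and 37.4, 38.4, 37.1 and 40.5 CPM in conditioned medium, with no overlap. The means were 43.2 ± 1.45 and 38.3 ± 1.54 CPM, a difference of -0.17 on the log2 scale (SE 0.05; adjusted p in edgeR = 0.00435). Its fall was thus small and larger than the spread between cultures, and the adjusted p was 0.0276 or less in every fit that left out 1 culture. A stretch of 2.2% of its exons overlaps Pmel on the other strand. The third type I gene, Dgkb (ENSMUSG00000036095; chromosome 12, 37817726 to 38634239), had 4 counts in all and never more than 1 in a culture, under the detection floor in both media.

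Dgkh (ENSMUSG00000034731; chromosome 14, 78558750 to 78732776, minus strand), the eta isoform of type II, was the only kinase of the 7 that rose. Its values were 8.82, 10.5, 10.4 and 10.3 CPM in control medium and 11.3, 12.5, 14.4 and 11.4 CPM in conditioned medium. The lowest conditioned culture was above the highest control culture, and conditioned replicate 3 stood highest. Means were 9.98 ± 0.776 and 12.4 ± 1.47 CPM, a difference of 0.31 on the log2 scale (SE 0.09; adjusted p in edgeR = 0.00657). Without conditioned replicate 3 the log2 fold change was 0.23 and the edgeR adjusted p 0.0611, so that the call rests on that culture. The ratio of Dgkg to Dgkh counts within a library, which no scaling can move, was 0.711, 0.652, 0.706 and 0.665 in control and 0.315, 0.263, 0.320 and 0.426 in conditioned replicates 1 to 4. Against kinases that did not rise the ratio differed less: Dgkg to Dgka averaged 0.158 ± 0.0137 in control and 0.106 ± 0.0187 in conditioned medium, and Dgkg to Dgkz 0.0167 ± 0.00149 and 0.0106 ± 0.00163.

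Dgkd (ENSMUSG00000070738; chromosome 1, 87853287 to 87945180), the delta isoform and the other type II gene, was the most abundant of the 9 by counts. It stood at 493 to 512 CPM in control and 497 to 512 CPM in conditioned medium, and the groups covered the same range. With 72485 counts in all, it was also the most precisely measured, with a difference of 0.0039 on the log2 scale (SE 0.03; adjusted p in edgeR = 0.923). The 2 genes of type II therefore gave different results, 1 past the threshold and 1 not, and the difference between them was not tested.

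Dgkz (ENSMUSG00000040479; chromosome 2, 91932824 to 91975864, minus strand), the zeta isoform of type IV and a brake on RasGRP signalling in lymphocytes, measured 426, 385, 407 and 419 CPM in control medium. In conditioned medium it measured 375, 371, 387 and 404 CPM, and the groups overlapped: control replicate 2 was below conditioned replicates 3 and 4. The means were 409 ± 17.7 and 384 ± 14.7 CPM, a difference of -0.09 on the log2 scale (SE 0.03; adjusted p in edgeR = 0.0311). That call was lost in 6 of the 8 fits that left out 1 culture, with edgeR adjusted p from 0.0628 to 0.154: those without control replicate 1, 3 or 4 or without conditioned replicate 1, 2 or 3. Over all 8 such fits the log2 fold change stayed between -0.12 and -0.07, and without control replicate 3 or conditioned replicate 3 it was -0.09, as with all cultures. The other type IV gene, Dgki (ENSMUSG00000038665; chromosome 6, 36846022 to 37300184), had 0 counts in every culture, which allows up to 0.139 to 0.195 CPM depending on the library.

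Dgke (ENSMUSG00000000276; chromosome 11, 89035179 to 89066850, minus strand), the type III isoform that prefers arachidonate-containing diacylglycerol of the phosphoinositide cycle, measured 35.3 to 37.8 CPM in control and 32.9 to 36.4 CPM in conditioned medium. Its groups overlapped, and its log2 fold change was -0.06 (SE 0.05, edgeR adjusted p = 0.355). Dgkq (ENSMUSG00000004815; chromosome 5, 108646693 to 108669672, minus strand), the theta isoform and single type V enzyme, measured 6.46 to 8.00 CPM and 5.39 to 7.41 CPM. The groups overlapped here too, with a difference of -0.15 on the log2 scale (SE 0.11; adjusted p in edgeR = 0.307). Of its exons, 30.8% overlap Tmem175 and Idua on the other strand, and use of strand in counting is not given in the sources used here, so its level is uncertain. It had 98 to 140 counts per culture, and its coefficient of variation in conditioned medium was 14.2%, against 9.36% from counting alone.

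**Figure D2:**
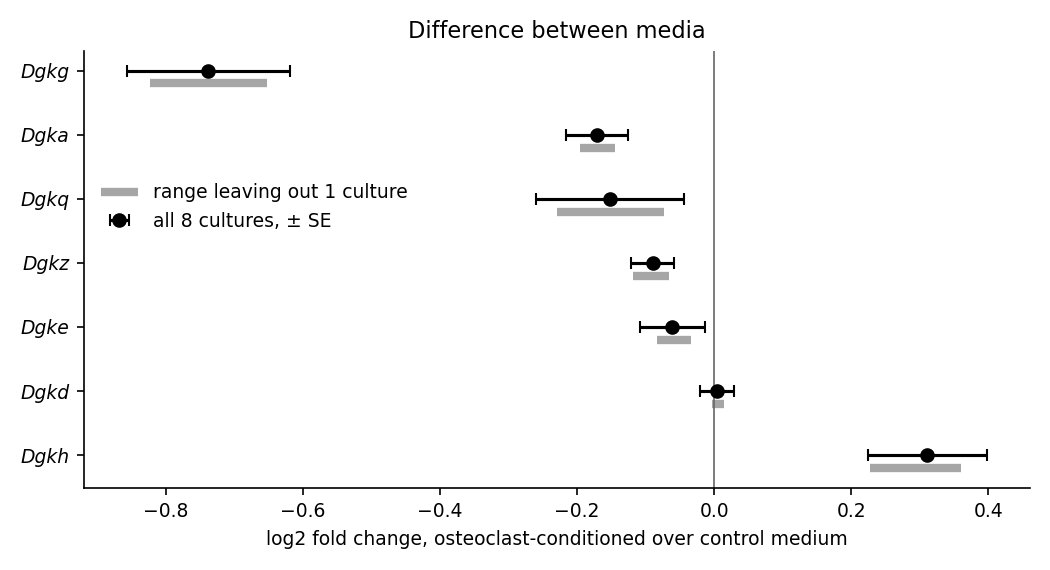
Log2 fold change (horizontal axis, conditioned over control medium) of the 7 tested kinases: points are the fit on all 8 cultures with bars of 1 SE, grey bars the range over fits that each left out 1 culture. Dgkg, chosen for its fall in these same samples, lies at -0.74, and the other 6 lie between -0.17 and 0.31.

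Levels were set side by side per length, as normalised CPM per kilobase of the union of a gene's exons. In control medium Dgkd (73.4 ± 1.38) and Dgkz (65.2 ± 2.82) led, followed by Dgka (9.07 ± 0.304), Dgke (4.30 ± 0.139), Dgkq (0.983 ± 0.0974), Dgkg (0.736 ± 0.0458) and Dgkh (0.588 ± 0.0457). No neighbours in this order overlapped in control medium. Dgkd and Dgkz together held 89.8% of the family's summed level per length in control and 90.5% in conditioned medium. Dgkg held 0.477% ± 0.037 in control and 0.295% ± 0.0502 in conditioned medium, and Dgkh 0.382% ± 0.0361 and 0.490% ± 0.0571. The summed level was 154 ± 2.99 in control and 149 ± 2.71 in conditioned medium, with cultures from 151 to 158 and from 146 to 152, which overlap. The kinase with the largest relative difference was thus among the least abundant of the 7.

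In conditioned medium the last places changed: Dgkh (0.731 ± 0.0864) stood above Dgkg (0.441 ± 0.0827), without overlap, and Dgkq (0.884 ± 0.126) overlapped Dgkh. This order depends on the length used. The share of Dgkg also depends on it, at 0.831% ± 0.065 in control and 0.516% ± 0.0868 in conditioned medium by the longest annotated transcript, while Dgkd and Dgkz together held 88.9% and 89.7%. With that length, 3916 bases for Dgkg against 9255 bases of merged exons, Dgkg (1.74 in control, 1.04 in conditioned medium) stood above Dgkh (0.654 and 0.813) in both media, and Dgkz (98.1 in control) stood above Dgkd (88.3).

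**Figure D3:**
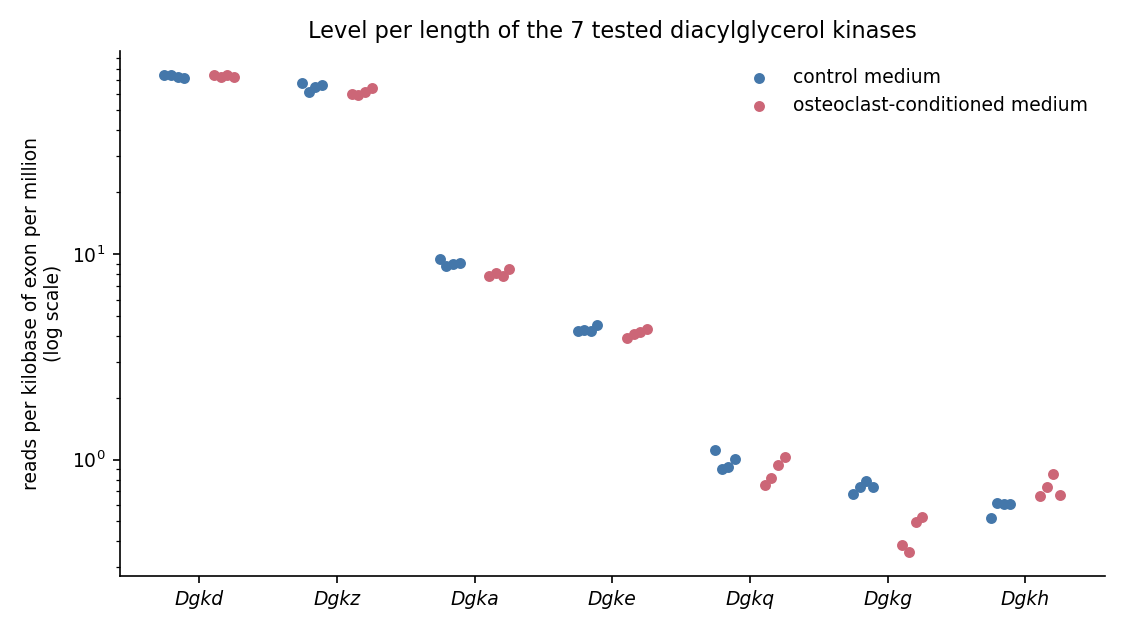
Normalised CPM per kilobase of exon (vertical axis, log scale) of the 7 tested kinases in each culture, ordered by their control mean; blue points are control and red points conditioned cultures. Dgkd and Dgkz lie near 73.4 and 65.2 in control medium, and Dgkq, Dgkg and Dgkh near or below 1.

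Genes beside the kinases on the chromosome were compared as well, taking the nearest listed gene on each side that does not overlap, a choice made with earlier results known. Of 18 such neighbours 11 were tested, and 3 rose and 2 fell, which at 45.5% stands beside the 30.5% of all tested genes. Etv5, an ETS transcription factor that ERK signalling induces, ends 28742 bases from Dgkg. It measured 254 ± 8.53 CPM in control and 247 ± 10.8 CPM in conditioned medium (log2 fold change -0.04, SE 0.03, edgeR adjusted p = 0.356), while Crygs on the other side had 0 counts. Next to Dgkb, which was under the floor, the related factor Etv1 rose from 17.8 ± 1.85 to 25.0 ± 1.41 CPM (log2 fold change 0.49, SE 0.07, edgeR adjusted p = 1.32e-06), without overlap. Around Dgkh, Akap11 had a difference of 0.0063 on the log2 scale (SE 0.03) and Vwa8 rose by 0.12 (SE 0.03, edgeR adjusted p = 0.0062). Cdk2 beside Dgka fell by 0.14 (SE 0.03, edgeR adjusted p = 0.00233), Creb3l2 beside Dgki fell by 0.39 (SE 0.13) and Gak beside Dgkq rose by 0.11 (SE 0.03), all on the log2 scale.

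Genes whose log2 CPM ran most like that of Dgkg over the 8 cultures were Arrdc1 (Pearson r 0.980), Phkb (0.975), Tob1 (0.970), Atp5j (0.967) and Atp5s (0.967), out of 9024 genes averaging 5 CPM or more. All 5 had lower means in conditioned medium, and the points share the 2 media, so much of each value is the difference between groups. After each medium's mean was removed, the highest were Amacr (0.969), Acad8 (0.967), Ogg1 (0.961), Tob1 (0.947) and Yae1d1 (0.946). Tob1, an antiproliferative regulator of mRNA decay, was the only gene in both sets of 5. It measured 17.0 ± 0.491 CPM in control and 14.9 ± 1.07 CPM in conditioned medium. These are descriptions over 8 libraries, the highest of 9024 values.

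The genes that make, read and recycle diacylglycerol were followed in 9 lists of 106 genes, of which 79 were tested. Of these 17 rose and 8 fell in the edgeR fit, 31.6% of those tested, which is near the 30.5% of all tested genes. Scaled by library totals only, 15 rose and 12 fell. Their median log2 fold change was 0.04, beside -0.0087 over all tested genes. No direction is read from these lists as a whole.

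Among the phospholipases C, which release diacylglycerol, 2 of 6 tested genes fell and 4 did not pass, beside 14.8% of all tested genes that fell. Plcb3, activated by G proteins, fell from 48.5 ± 1.32 to 40.2 ± 2.46 CPM (log2 fold change -0.27, SE 0.05, edgeR adjusted p = 3.61e-05), and Plch1 fell from 57.9 ± 1.52 to 52.6 ± 0.804 CPM. The list's summed CPM covered 1013 to 1046 in control and 1021 to 1039 in conditioned medium. Of the other enzymes that yield diacylglycerol, such as lipins and phosphatidate phosphatases, 1 of 9 fell. It was Plpp5, at 5.49 ± 0.34 and 4.23 ± 0.50 CPM, below the level set for naming and picked out after its values were seen. DESeq2 called none of the 9, and 2 had an unadjusted edgeR p under 0.05.

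Enzymes that use diacylglycerol in other ways include acyltransferases, lipases and phosphotransferases. They gave 0 calls among 7 tested genes in the edgeR fit, beside 30.5% called over all tested genes. At an unadjusted p under 0.05 there was 1, and DESeq2 also gave 0. Among lipid kinases that share the catalytic fold, 1 of 4 rose, beside 15.7% of all tested genes. It was Cerk, which phosphorylates ceramide, from 96.8 ± 3.12 to 108 ± 2.74 CPM. Dgkk, the remaining type II kinase and not among the 9, had at most 1 count in a culture.

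Diacylglycerol-binding protein kinases included 4 genes that rose among 8 tested (median log2 fold change 0.09), beside 15.7% of all tested genes that rose. Prkca, a conventional protein kinase C, rose from 163.5 ± 6.50 to 201 ± 4.51 CPM (log2 fold change 0.30, SE 0.03, edgeR adjusted p = 8.28e-09). Prkch, a calcium-independent isoform, rose from 339 ± 8.41 to 403 ± 8.58 CPM (0.25, SE 0.03). Prkcb, the conventional isoform known from B cells, rose from 364 ± 4.95 to 426 ± 11.2 CPM (0.22, SE 0.03). Of the other proteins that bind diacylglycerol (RasGRPs, chimaerins and Munc13 proteins), 1 of 6 fell, beside 14.8% of all tested genes. It was Unc13a, from 8.62 ± 0.596 to 6.62 ± 0.534 CPM.

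Genes that return phosphatidic acid to phosphoinositides gave 5 rises and 2 falls among 17 tested, where 15.7% of all tested genes rose and 14.8% fell. Pip5k1c, which makes the substrate of phospholipase C, rose from 243 ± 7.60 to 284 ± 5.89 CPM (log2 fold change 0.22, SE 0.03). Cds2, which activates phosphatidic acid for that route, rose from 185 ± 2.12 to 205 ± 10.8 CPM, and the lipid transfer protein gene Pitpnm1 fell from 138 ± 9.10 to 105 ± 8.78 CPM (-0.39, SE 0.06). Other routes to phosphatidic acid, by phospholipase D or by acylation, gave 4 rises and 0 falls among 8 tested, with 5 genes under an unadjusted p of 0.05 and 3 called by DESeq2, again beside 15.7% and 14.8% of all tested genes. Among them Agpat4 rose from 7.46 ± 0.812 to 9.64 ± 1.05 CPM, Gpat3 from 150.4 ± 4.95 to 188 ± 7.87 CPM and Agpat3 from 43.3 ± 1.06 to 51.5 ± 1.68 CPM, each an acyltransferase of glycerolipid synthesis.

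Output genes of the ERK pathway, which lies below RasGRP, gave 3 rises and 2 falls among 14 tested (median log2 fold change 0.02), beside the same 15.7% and 14.8%. The ERK phosphatase genes Dusp5 and Dusp4 rose, from 59.5 ± 3.54 to 76.5 ± 1.18 CPM and from 21.4 ± 1.59 to 27.3 ± 0.948 CPM. Phlda1 fell from 44.4 ± 1.23 to 37.9 ± 0.888 CPM.

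**Figure D4:**
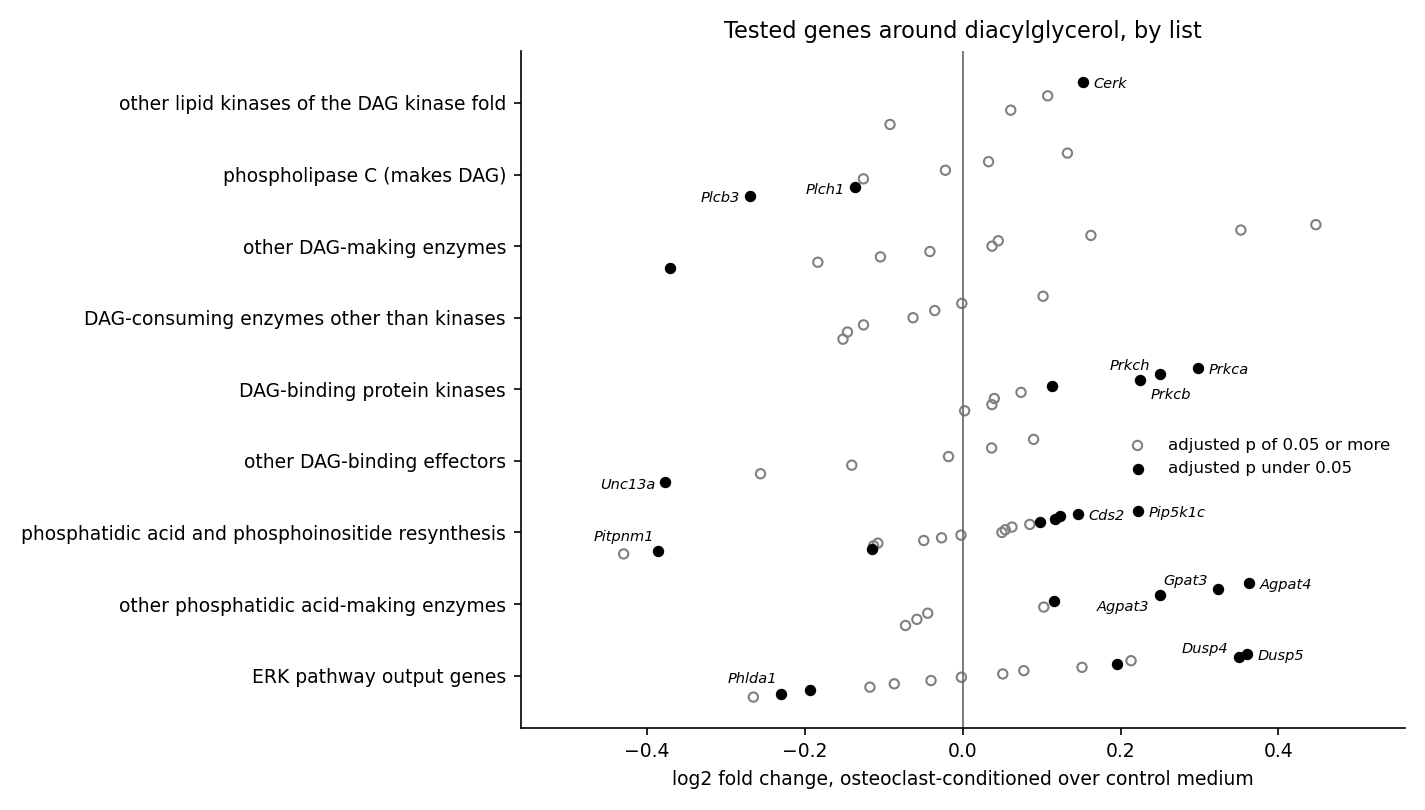
Log2 fold change (horizontal axis, conditioned over control medium) of the 79 tested genes of the 9 lists around diacylglycerol (DAG), 1 point a gene; filled points had an edgeR adjusted p under 0.05, and the genes chosen by the naming rule carry their symbol. Of the filled points, 17 lie to the right of 0 and 8 to the left.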

How the data were processed

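The authors deposited a single table of unnormalised read counts, with a row for each Ensembl gene and a column for each of the 8 samples. STAR 2.7.5a, featureCounts 2.0.1 and mm10 are listed per the submitters' processing notes; the annotation, use of strand and treatment of reads that match several places are not given in the sources used here. All columns were matched to samples by their header and 0 columns were left unused. Symbols and positions came from GENCODE M21 on GRCm38, which matched 21817 of the 21859 IDs, and promoter windows from RefSeq (GRCm38.p6), which held all 9 kinases.

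Genes passing filterByExpr (10729) were scaled by TMM and tested in edgeR 4.0.16 (R 4.3.3) with a robust quasi-likelihood fit of medium over all 8 samples, Benjamini-Hochberg adjustment over all tested genes and a threshold of 0.05. Standard errors came from the F statistic and the log2 fold change. Common dispersion corresponded to a coefficient of variation of 0.0304. DESeq2 1.42.0, other scalings and filters, a fit without robust estimation, a replicate block and leaving out each sample were the alternatives. Log2 CPM for correlations used a prior count of 2.

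Every listed kinase is named. From each pathway list, up to 3 genes past the threshold with a mean of at least 5 CPM are named by size of change, and 5 genes per measure as most like Dgkg. The kinases and lists were chosen with earlier results of these data known. In the pathway lists 1 gene is not reported here and was left out of their counts, so no direction is read from those counts. Total counts limit the precision of the low kinases, and intervals from counts cover counting error only.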

Additional observations from a re-analysis of the deposited data

Results flagged for a closer look

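Dgkh in control replicate 1 stood apart from the rest of its medium, at 8.82 CPM against 10.3 to 10.5 CPM in the other 3 control cultures. Without that culture the log2 fold change of Dgkh was 0.26 (edgeR adjusted p = 0.0337). Plch1 in control replicate 2 was also set apart, at 55.7 CPM against 58.5 to 58.9 CPM, and without it the log2 fold change was -0.16 (edgeR adjusted p = 0.00231). In each case the gap to the nearest culture, as a share of the whole range, was above the critical value of Dixon's test, at 0.878 for Dgkh and 0.857 for Plch1. Over 46 groups of 4 cultures, from 23 genes, chance alone sets apart about 2.3.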

How the results depend on the processing

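The count of kinases that rose was 0 to 1 when single cultures were left out in turn, the 0 coming without osteoclast-conditioned replicate 3. Dgkd, near 0 throughout, changed sign with library totals only (-0.017) and ranged from -0.0035 to 0.014 when 1 culture was left out, with 3 values below 0 (without control replicate 3, -0.0010; without control replicate 4, -0.0015; without osteoclast-conditioned replicate 3, -0.0035). Dgkg ranged from -0.82 to -0.65 over all alternatives, and Dgka from -0.20 to -0.15 with its call in each. With lengths from the longest transcript, 2 pairs of kinases stood out of order in control medium and 2 in conditioned medium. None of the 240 values of the 16 named pathway genes changed call or direction. These genes were named for the largest called changes in the main fit, so stable calls were largely built in. The counts of the pathway lists did move. With 1 culture left out they ran from 14 to 19 higher and from 6 to 9 lower, and DESeq2 gave 15 and 6. Over all genes, calls were 3273 in the main setting, 2690 with DESeq2 and 2635 to 3578 when 1 culture was left out. With library totals only, 40.7% of calls were higher, against 51.6%. The labels do not say whether same-numbered cultures were handled together. The mean correlation of their deviations was 0.037 (lowest -0.051, highest 0.14), beside -0.013 for different numbers (lowest -0.27, highest 0.13). Of the 4, 1 correlated best with its own number. So few pairs cannot decide whether the cultures were paired. With the replicate block, 3446 genes were called. Among the tested kinases, counts were lowest for Dgkg, Dgkq and Dgkh, at 55 to 269 per culture.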
